A study of Mus musculus with 2 samples.

Results

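The cells described here are induced macrophages (iMac) of the mouse that carried many transcripts of the granule protease gene Prtn3 and of the surface antigen gene Ly6c2 while Ms4a7 and Folr2 gave no count. The series title describes iMac as fibroblasts turned into macrophages by c-Myc with no other factor. The 2 labelled samples are the cDNA and the oligo library of wild type cells that were detached with EDTA and run on the DNBelab C4 droplet system. No barcode could be tied to either, so all cells were treated as 1 sample with no replicate, and no test between conditions is possible. Cells were kept with at least 500 genes, at most 15% of counts from mitochondrial genes and at least 5000 counts, which 5207 of 6837 barcodes met. Members had a summed Prtn3 and Ly6c2 level of 250 CPM or more (CPM is the count scaled to a total of 1000000 for the cell or pool) and 0 counts of both Ms4a7 and Folr2. There were 946 of them, 18.2% of the 5207 cells (exact Clopper-Pearson interval 17.1 to 19.2%, counting error only), and they are called Prtn3 and Ly6c2 high cells below. All 4261 other cells that met the limits served for comparison.

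Prtn3 encodes proteinase 3, a serine protease stored in the primary granules of neutrophil precursors and monocytes. Ly6c2 encodes a Ly6C antigen that is abundant on newly formed mouse monocytes and declines as these become resident cells. Ms4a7 and Folr2 are genes of mature tissue macrophages, as are those of the complement component C1q. In bone marrow, granule protease genes are transcribed early, in progenitors shared by neutrophils and monocytes, and are shut off as macrophage genes come on.

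The depth of the Prtn3 and Ly6c2 high cells ran from 5065 to 121873 counts with a median of 22982, and the other cells ran from 5005 to 192369 with a median of 24942. Both pools were large, with 24983353 counts in the high cells and 131662730 in the others. Members made up 17.8% of cells with 5000 to 10000 counts, 19.4% of those with 10000 to 20000, 21.3% of those with 20000 to 40000 and 13.5% of those with 40000 or more. Mitochondrial genes took 0.631% of the counts of the high cells against 0.861% in the others, and ribosomal protein genes took 34.5% against 31.9%. With these genes and ribosomal RNA transcripts left out of the scaling, every level rose, and 8197 genes were compared rather than 6792. Of these 8197 genes, 26 were at least 2-fold higher in the high cells. Since the set of genes changed as well, this does not isolate the part of the left-out genes, which was not tested.

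The genes that chose the cells are given first, as a description of the choice. The summed Prtn3 and Ly6c2 level ran from 250.7 to 3412 CPM among the 946 members, with a median of 474. The choice rested on few counts per cell, with a median of 11 summed counts and a minimum of 2, and 149 members had 4 or fewer. Near the threshold, 139 members lay at 250 to 300 CPM, and 163 cells without Ms4a7 or Folr2 counts lay just outside at 200 to 250. Most members were chosen through Prtn3. It outnumbered Ly6c2 in 723 of the 946 cells (76.4%), Ly6c2 outnumbered Prtn3 in 188 (19.9%) and the counts were equal in 35. Both genes had a count in 531 members (56.1%), Ly6c2 was at 0 in 397 and Prtn3 at 0 in 18. Among the other cells, 42.5% had a Prtn3 count and 11.8% a Ly6c2 count, and the share of these that free RNA in the droplets gives was not estimated.

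Over the pooled counts of all members, Prtn3 stood at 372 CPM (95% exact Poisson interval 364 to 379) in the high cells against 43.8 CPM in the others, and Ly6c2 at 179 CPM (173 to 184) against 8.64 CPM. These values contain the choice itself. Each count was therefore given at random, with equal probability, to 1 of 2 parts. Cells were chosen on the first part and levels were read on the second. Choosing on the first part, with at least 2500 counts in it, gave 977 cells, of which 819 (83.8%) were also members. On the second part Prtn3 was at 342 CPM (332 to 352) in the chosen cells against 48.7 CPM in the rest, and Ly6c2 at 169 CPM (162 to 176) against 9.89 CPM. Ms4a7 was at 1.40 CPM (0.828 to 2.21) against 23.1 CPM there, and Folr2 at 0.543 CPM (0.218 to 1.12) against 14.1 CPM. Both parts came from the same cells and library, and if reads rather than molecules were counted, copies of 1 molecule could lie in both, so these values too are a description.

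Prtn3 lies on chromosome 10 (79874476 to 79883174, plus strand, GRCm38, GENCODE M21), next to the elastase gene Elane (79886247 to 79888215). Ly6c2 lies on chromosome 15 (75108158 to 75111970, minus strand), and the cathepsin G gene Ctsg, the gene with the largest ratio outside the rule, on chromosome 14 (56099881 to 56102574, minus strand). The 250 bases before the RefSeq start of these 3 genes (GRCm38.p6) are shown because their pooled levels were higher in the members. For Prtn3 and Ly6c2 this is the choice itself, and a Ctsg count was present in 18.8% of the members. Capitals mark GAGGAA, the letters at the core of sites bound by the myeloid factor PU.1, searched on both strands. The windows are chr10:79879417-79879666 on the plus strand for Prtn3, which lies inside the GENCODE span of the gene, chr15:75111972-75112221 on the minus strand for the first of 2 Ly6c2 starts, and chr14:56102575-56102824 on the minus strand for Ctsg.
Prtn3: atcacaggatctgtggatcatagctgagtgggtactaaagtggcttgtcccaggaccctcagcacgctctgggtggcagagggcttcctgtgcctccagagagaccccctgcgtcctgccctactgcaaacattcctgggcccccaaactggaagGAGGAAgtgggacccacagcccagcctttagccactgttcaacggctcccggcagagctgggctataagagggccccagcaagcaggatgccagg
Ly6c2: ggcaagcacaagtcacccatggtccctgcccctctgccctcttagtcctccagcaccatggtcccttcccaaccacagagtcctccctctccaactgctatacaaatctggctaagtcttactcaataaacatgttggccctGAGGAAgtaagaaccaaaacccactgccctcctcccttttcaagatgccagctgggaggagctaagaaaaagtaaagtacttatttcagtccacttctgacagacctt
Ctsg: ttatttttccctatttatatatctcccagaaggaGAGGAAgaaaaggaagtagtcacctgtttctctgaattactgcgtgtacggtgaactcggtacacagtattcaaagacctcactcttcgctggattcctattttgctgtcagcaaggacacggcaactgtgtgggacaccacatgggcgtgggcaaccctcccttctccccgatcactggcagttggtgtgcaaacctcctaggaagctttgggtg
GAGGAA was found in 1 place in each of the 3 windows, and in 2 places in the window of the other Ly6c2 start, which overlaps the one shown. Among 32851 RefSeq promoter windows of this length, 7639 (23.3%) held it, as did 4 of the 15 genes at least 2-fold higher in the high cells (26.7%) and 33 of the 95 genes at least 2-fold lower (34.7%). TTGCNNAA, a form of the C/EBP site, and CACGTG, the E-box that Myc and Max bind, were absent from these windows. They were in 9.56% and 6.02% of all windows. TTGCNNAA was in 7.61% of windows of genes at 10 CPM, in 4 of the 15 higher genes (26.7%) and in 11 of the 95 lower genes (11.6%). For CACGTG these shares were 8.99%, 2 of 15 (13.3%) and 3 of 95 (3.16%). Differences in share were not tested. These matches describe letters and do not show binding.

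Over all genes, the Prtn3 and Ly6c2 high cells differed from the others mainly in what was lower. The log2 ratio of both pools, after 1 CPM was added to each level, was taken for the 6792 genes at 10 CPM or more in at least 1 pool, without the 4 genes of the rule. At least 2-fold higher in the high cells were 15 genes (0.221% of the genes compared), and at least 2-fold lower were 95 (1.4%). In either direction and by any amount, 45.3% were higher and 54.7% lower, and the median log2 ratio was -0.02. With no limit on level, 37.4% of 20030 genes were higher. List counts over genes with a row, given below, also take in genes under 10 CPM. With 1 sample these are differences of size, not tested calls, and all intervals cover counting error only.

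**Figure D1:**
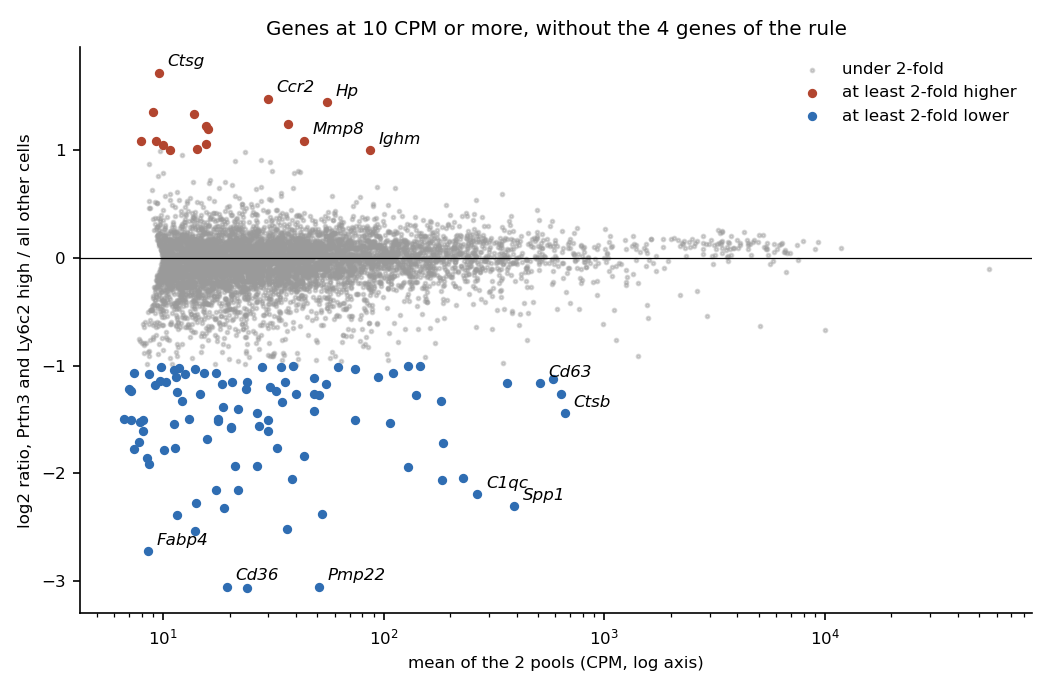
Log2 ratio of Prtn3 and Ly6c2 high cells over all other cells (y axis) against the mean of the 2 pools in CPM (x axis, log scale) for 6792 genes, each point a gene. Points in red are the 15 genes at least 2-fold higher in the high cells and points in blue the 95 genes at least 2-fold lower, which reach further from 0.

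The highest ratios in the Prtn3 and Ly6c2 high cells included single genes of granules and of monocytes beside genes of other kinds. Ctsg, a serine protease of the same granules as proteinase 3, was at 15.2 CPM (13.7 to 16.8) against 3.93 CPM, a log2 ratio of 1.72. Ccr2, the chemokine receptor that brings monocytes out of the bone marrow, was at 44.4 CPM (41.9 to 47.1) against 15.3 CPM (1.48). Haptoglobin, which binds free haemoglobin and is stored in neutrophil granules, is encoded by Hp, at 81.2 CPM (77.7 to 84.8) against 29.1 CPM (1.45). Also higher were Mmp8, the neutrophil collagenase, at 59.7 against 27.4 CPM, and Slpi, an inhibitor of granule proteases, at 52.3 against 21.5 CPM. Receptor genes followed, with the prostaglandin E2 receptor gene Ptger3 at 13.5 against 4.63 CPM and Gpr84, a receptor for medium-chain fatty acids, at 20.3 against 7.42 CPM. The sorting receptor gene Sorl1 was at 22.3 against 8.89 CPM. Rflnb was at 22.8 against 9.33 CPM, Tagap at 11.1 against 4.69 CPM, Cytip at 21.4 against 9.75 CPM and Slc6a13 at 13.1 against 5.61 CPM. The noncoding transcript Hotairm1, which lies in the HoxA cluster, was at 19.4 against 9.12 CPM. Ighm, the constant region of the immunoglobulin mu heavy chain, was at 116 CPM (112 to 120) against 57.3 CPM. Its partner Cd79a had 0.0801 CPM against 0.122 CPM, and the B cell adaptor gene Blnk 0.760 against 5.83 CPM. Rpl39l, a copy of a ribosomal protein gene whose reads may be shared with its parent, was the remaining gene past 2-fold, at 13.8 against 6.14 CPM, and Gpr141, at 14.6 against 6.83 CPM, lay just under it.

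**Figure D2:**
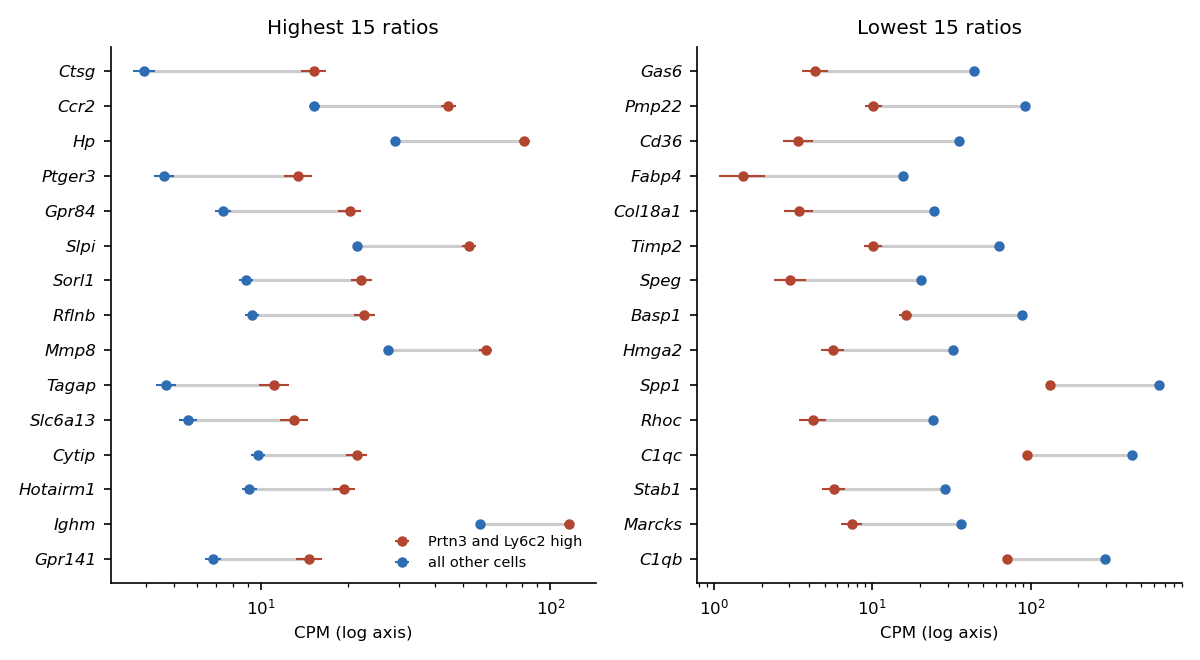
CPM (x axis, log scale) of the genes with the 15 highest ratios (left) and the 15 lowest ratios (right), outside the rule and ribosomal protein genes. Red points are Prtn3 and Ly6c2 high cells, blue points all other cells, and bars are 95% Poisson intervals. Ctsg, at 15.2 CPM in the high cells and 3.93 CPM in the others, leads the left panel.

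The granule and monocyte programmes were present in part. Of 12 primary granule genes, 9 had a row, 6 reached 10 CPM, and 5 of the 9 were higher and 4 lower (median log2 ratio 0.14). Of the 6 at 10 CPM or more, 2 were higher and 4 lower (median -0.24, against -0.02 over all genes compared), and the list summed to 804 CPM in the high cells against 1243 CPM in the others. Most of both sums came from Cd63 and Calr. Besides Ctsg, the protease inhibitor gene Serpinb1a was at 8.45 against 2.68 CPM and Cst7, encoding cystatin F, at 27.8 against 19.97 CPM. Elane, the neighbour of Prtn3, was nearly without counts, at 0.841 CPM (0.520 to 1.29) against 0.349 CPM, and Fcnb had 0.1201 CPM. The myeloperoxidase gene Mpo, Prss57 and Ms4a3 had no row and were not analysed here. The 4 lower genes were the tetraspanin gene Cd63 at 315 against 705 CPM, Clec12a at 6.92 against 16.0 CPM, Srgn at 39.4 against 47.9 CPM and Calr at 391 against 447 CPM.

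Of 14 later granulocyte genes, 11 had a row and 7 were higher. Mmp8 and Hp were the 2 that reached 10 CPM. Camp (0.0801 against 0.137 CPM) and Ltf (0.0400 against 0.00760 CPM), which fill secondary granules, were close to 0, S100a8 was at 5.08 against 4.98 CPM and Csf3r, the receptor for G-CSF, at 3.80 against 3.05 CPM. Apart from Hp and Mmp8, every gene of this list with a row was thus under 10 CPM in both pools.

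Of 18 monocyte genes, 17 had a row and 10 of these were higher (median log2 ratio 0.09), with summed levels of 2563 CPM in the high cells against 2522 CPM in the others. S100a4 gave most of both sums. After Ccr2 came Vcan, encoding the matrix proteoglycan versican, at 39.7 CPM (37.3 to 42.3) against 21.01 CPM, the integrin gene Itgal at 25.5 against 15.6 CPM, and Emb at 256 against 196 CPM. The coagulation factor gene F13a1 was at 42.7 CPM (40.1 to 45.3) against 40.0 CPM, with a log2 ratio of 0.09. Cd44, S100a4, Ms4a6c and Ly86 were slightly lower, at 66.8 against 72.5, 1913 against 1958, 82.8 against 94.0 and 68.8 against 96.4 CPM. Several genes of blood monocytes were almost without counts in both pools, namely Plac8 (0.440 against 0.0684 CPM), Fn1 (0.480 against 0.122 CPM) and Ms4a4c (0.0801 against 0.106 CPM). Ly6a was at 6.72 against 6.09 CPM, Ace had no count in the high cells, and Chil3 had no row. Ly6c1, the close copy of Ly6c2, had 0.0400 CPM against 0.0608 CPM, and reads of this pair may have been divided or discarded by the authors' counting.

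Markers of early progenitors were few and low, and the main ones could not be read, since Kit, Cd34, Gata2 and Hoxa10 had no row. Flt3 was at 0.200 CPM and Myb, on 11 counts, at 0.440 CPM (0.220 to 0.788) against 0.0684 CPM (0.0313 to 0.130), while Gfi1, Erg and Hoxa9 had no count in the high cells, where 3 counts would be 0.1201 CPM. Of the 14 progenitor genes with a row, 5 were higher and 9 lower (median log2 ratio -0.06), against 37.4% of all genes higher with no limit on level. At 10 CPM or more were 4 of them, with 1 higher and 3 lower (-0.25). Egfl7, also a gene of endothelium, was at 137 CPM (132 to 142) against 86.9 CPM, and the sialophorin gene Spn at 6.28 against 3.19 CPM. Lmo2 (107 against 127 CPM), Cdk6 (36.7 against 44.1 CPM), Sox4 (3.16 against 8.86 CPM), Cd48 (8.85 against 14.6 CPM), Procr (3.56 against 4.68 CPM) and Meis1 (1.76 against 2.40 CPM) were lower. On these genes the cells were given no stage, and they are named here only by Prtn3 and Ly6c2.

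Of the genes common to macrophages, some were close in both pools and most were lower. Lyz2, encoding lysozyme, was at 3598 against 3585 CPM, the myeloid adaptor gene Tyrobp at 5547 against 5763 CPM and Csf1r, the CSF1 receptor, at 132 against 149 CPM. Of 20 core macrophage genes, all reached 10 CPM, 16 were lower and 4 higher (median log2 ratio -0.25). The largest differences were in Mertk, a receptor for dying cells (5.24 against 13.1 CPM), Aif1 (24.2 against 45.4 CPM), Adgre1, encoding F4/80 (24.4 against 38.6 CPM) and Trem2 (205 against 320 CPM). Of the 6 lists that mark other cell types, fibroblast genes summed to 1.96 CPM against 3.49 CPM over 6 genes with a row, T and NK cell genes to 1.32 against 1.60 CPM and mast cell and basophil genes to 0.0801 against 0.0911 CPM. Dendritic cell genes summed to 11.9 against 9.69 CPM, most of it Batf3 (8.57 against 7.47 CPM). The B cell list, at 117 against 63.5 CPM, was nearly all Ighm, and the erythroid and megakaryocyte list, at 86.5 against 286 CPM, was nearly all Pf4, which macrophages also make.

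Lower in the Prtn3 and Ly6c2 high cells were genes of tissue macrophages. C1qa, C1qb and C1qc, the 3 chains of C1q, lie side by side on chromosome 4 (136880129 to 136898803 in all). C1qa was at 88.5 CPM (84.8 to 92.3) against 367 CPM, C1qb at 70.4 CPM (67.2 to 73.8) against 297 CPM and C1qc at 94.8 CPM (91.0 to 98.7) against 437 CPM, so each was 4.15-fold to 4.61-fold lower. The anaphylatoxin receptor genes were lower as well, C3ar1 at 54.2 against 159 CPM and C5ar1 at 8.85 against 26.6 CPM. In all, 7 of 10 complement genes with a row were lower (median log2 ratio -0.99), against 37.4% of all genes higher with no limit on level. Of the 8 at 10 CPM or more, 7 were lower and 5 at least 2-fold lower. Over all genes compared, these shares were 54.7% and 1.4%. C3, the central complement component, differed in direction, at 7.13 against 2.54 CPM.

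The largest single differences were in Gas6, the bridging ligand of Mertk and Axl (4.36 CPM, 3.58 to 5.26, against 43.8 CPM), Pmp22 (10.2 against 91.6 CPM) and the lipid scavenger gene Cd36 (3.40 CPM, 2.72 to 4.21, against 35.5 CPM). Fabp4, a fatty acid binding protein gene, was at 1.52 CPM against 15.7 CPM, the collagen gene Col18a1 at 3.44 against 24.6 CPM and the protease inhibitor gene Timp2 at 10.1 against 62.8 CPM. Spp1, encoding osteopontin, was at 131.5 CPM (127 to 136) against 650 CPM. Genes tied to cell shape and signalling were also among the lowest ratios, with Basp1 at 16.3 against 88.8 CPM, Marcks at 7.41 against 36.3 CPM and Rhoc at 4.203 against 24.0 CPM. The chromatin gene Hmga2 was at 5.64 against 32.2 CPM and Speg at 3.04 against 20.2 CPM.

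Whole lists shared this direction, beside 37.4% of all genes higher with no limit on level. Among scavenger and phagocytic receptors, 16 of 19 with a row were lower (median log2 ratio -0.66), including the mannose receptor gene Mrc1 (18.3 against 68.4 CPM), Stab1 (5.72 against 28.9 CPM) and Clec10a (8.25 against 34.3 CPM). Of 16 lipid-associated genes, 15 were lower (-0.71), with the lipid droplet gene Plin2 at 103 against 262 CPM and Fabp5 at 376 against 902 CPM. Lysosomal genes were lower in 18 of 20 (-0.44), led by the protease genes Ctsb (355 against 966 CPM) and Ctsd (368 against 803 CPM). The exceptions were Ctsh, at 53.1 CPM (50.3 to 56.0) against 30.2 CPM, and Ctsc, which encodes the protease that activates granule serine proteases, at 231 against 200 CPM. Interferon response genes were lower in 17 of 19 (-0.70), with Rsad2 at 3.002 against 10.3 CPM and Ifi27l2a at 224 against 501 CPM. Ifi207 was at 16.4 against 31.1 CPM and Stat2 at 5.44 against 10.9 CPM. When only cells below the threshold without a Ms4a7 or Folr2 count served for comparison, the interferon median was -0.21, with 14 of 19 lower.

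Of 17 genes of chemokines and their receptors, 13 were lower (median log2 ratio -0.97), among them Ccl4 (10.5 against 43.0 CPM), Ccl2 (14.4 against 51.0 CPM), Ccl6 (13.2 against 41.1 CPM) and Pf4 (85.9 against 285 CPM). The receptor genes Ccr2 and Ccr1 (22.2 against 13.8 CPM) were higher, and Cx3cr1 was at 83.9 against 96.6 CPM. Transcription factors of the myeloid lineage were close in both pools, with 9 of 20 higher (median log2 ratio -0.05) and Spi1, encoding PU.1, at 223 against 221 CPM. Maf, which acts in mature macrophages, was at 38.3 CPM (36.0 to 40.9) against 110 CPM and Id2 at 16.7 against 31.0 CPM. Klf4, which acts in monocytes, was at 52.2 CPM (49.4 to 55.2) against 29.3 CPM, and Cebpb at 216 against 173 CPM.

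Growth genes were slightly higher in the Prtn3 and Ly6c2 high cells. Myc was at 46.6 CPM (44.0 to 49.4) against 38.5 CPM, and counts per gene do not separate the introduced from the endogenous gene. Of 22 Myc target genes, 21 were higher (median log2 ratio 0.16), such as Fbl, encoding fibrillarin, at 411 against 326 CPM, Mybbp1a at 175 against 145 CPM, Cad at 42.7 against 35.4 CPM and Bop1 at 63.8 against 53.04 CPM. S phase genes were higher in 18 of 20 (0.27), with the uracil glycosylase gene Ung at 34.3 against 21.3 CPM, Cdc45 at 44.0 against 32.0 CPM and the helicase subunit genes Mcm3 (82.6 against 62.7 CPM) and Mcm5 (92.6 against 71.7 CPM). Of 20 G2 and M phase genes, 17 were lower (-0.14), with Cenpe at 22.9 against 30.6 CPM and Plk1 at 66.7 against 83.9 CPM. None of these 62 genes differed 2-fold. Among cells with few counts of both phase lists, which were chosen on the same genes, 10 of the 20 were lower and the median was 0.01.

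**Figure D3:**
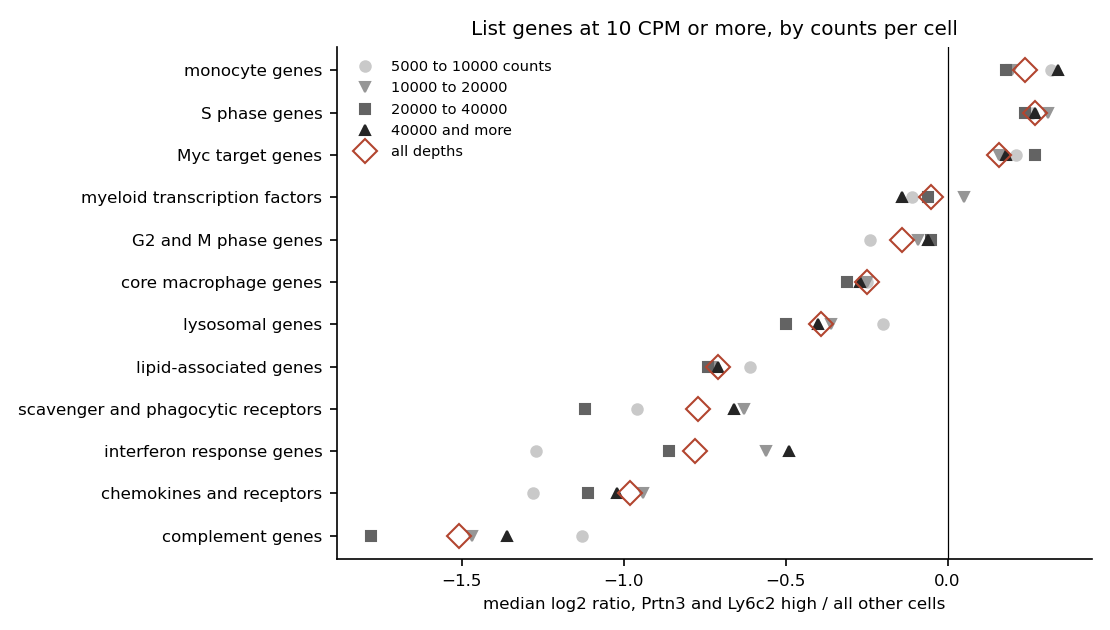
Median log2 ratio of Prtn3 and Ly6c2 high cells over all other cells (x axis) for 12 gene lists (y axis), over list genes at 10 CPM or more. Diamonds use all depths and the grey to black symbols the 4 ranges of counts per cell, from 5000 to 10000 up to 40000 and more. Complement genes lie between -1.78 and -1.13 in the 4 ranges and S phase genes between 0.24 and 0.31.

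Within ranges of depth and after thinning, most lists kept their direction. In each of the 4 ranges of counts per cell, complement, lipid-associated, scavenger, chemokine, interferon response, lysosomal and core macrophage genes had negative medians and monocyte, S phase and Myc target genes positive ones, over list genes at 10 CPM or more. Primary granule genes, by contrast, had medians of 0.02, -0.33, -0.28 and -0.19 from the shallowest range to the deepest. In cells of 40000 counts or more, where a member needs 10 or more summed Prtn3 and Ly6c2 counts, Ctsg was at 16.3 CPM against 4.19 CPM, Ccr2 at 49.2 against 15.6 CPM, Cd36 at 4.22 against 35.5 CPM and C1qc at 80.6 against 403 CPM. When every cell was thinned to 5000 counts, a Ctsg count was seen in 5.81% of the high cells (exact interval 4.41 to 7.50%) against 1.48% of the others, with 18.8% and 6.76% before thinning. Ccr2 was seen in 19.5% against 5.99% and Hp in 28.2% against 10.8% of thinned cells. C1qc was seen in 28.3% (25.5 to 31.3%) against 62.9% and Cd36 in 2.11% (1.30 to 3.25%) against 12.5%. The thinned cells had a median of 1605 genes with a count in the high cells and 1623 in the others. No cell type known to lack C1q or Ctsg was found among these cells, so the share that free RNA gives was not estimated.

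The rule joins a condition on Prtn3 and Ly6c2 with a condition on Ms4a7 and Folr2, and the cells can be sorted by both. A further 64 cells were high for Prtn3 and Ly6c2 but had a Ms4a7 or Folr2 count, 3224 were low without such a count and 973 were low with one. Their median depths were 30071.5, 22011 and 35205 counts, and a count of Ms4a7 or Folr2 is easier to meet in a deeper cell. Ctsg, Ccr2 and Hp, which have 3 of the highest ratios, followed the Prtn3 and Ly6c2 condition. Ctsg was at 15.2 CPM in the members and 16.3 CPM (11.4 to 22.7) in the 64 cells, against 4.13 and 2.76 CPM in the low cells without and with Ms4a7 or Folr2 counts. Ccr2 was at 44.4, 48.9, 14.8 and 14.5 CPM in the same order, and Hp at 81.2, 84.4, 31.9 and 19.1 CPM. For these 3 genes the intervals of both high classes overlapped and lay above both low classes. The summed levels of the primary granule and monocyte lists did not follow it. Primary granule genes summed to 804, 965, 1134 and 1520 CPM over the 4 classes and monocyte genes to 2563, 2763, 2436 and 2716 CPM. A few abundant genes set these sums. In the members, Cd63 (315 CPM) and Calr (391 CPM) gave most of the granule sum. S100a4 (1913 CPM) gave most of the monocyte sum there. The later granulocyte list, which holds Hp and Mmp8, had sums of 150, 164, 69.2 and 50.3 CPM. In the members Hp (81.2 CPM) and Mmp8 (59.7 CPM) gave most of the sum. These sums thus mainly restate 2 genes with high ratios and do not describe the list as a whole. Serpinb1a was at 4.19 CPM (1.92 to 7.96) in the 64 cells, which overlaps the 3.07 CPM (2.72 to 3.45) of the low cells without Ms4a7 or Folr2 counts.

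C1qc was lower with each condition. It was at 94.8 CPM in the members, 317 CPM (294 to 342) in the 64 high cells with a Ms4a7 or Folr2 count, 318 CPM (314 to 321) in the low cells without one and 732 CPM in the low cells with one. F13a1 differed from Ctsg, Ccr2 and Hp. It was at 42.7 CPM in the members and 89.9 CPM (77.7 to 104) in the 64 cells, against 30.2 and 60.7 CPM in the low cells without and with Ms4a7 or Folr2 counts, so it was higher with such counts at either Prtn3 and Ly6c2 level. Gas6 was low in both high classes, at 4.36 and 6.99 CPM, against 28.9 and 81.7 CPM in the low cells.

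**Figure D4:**
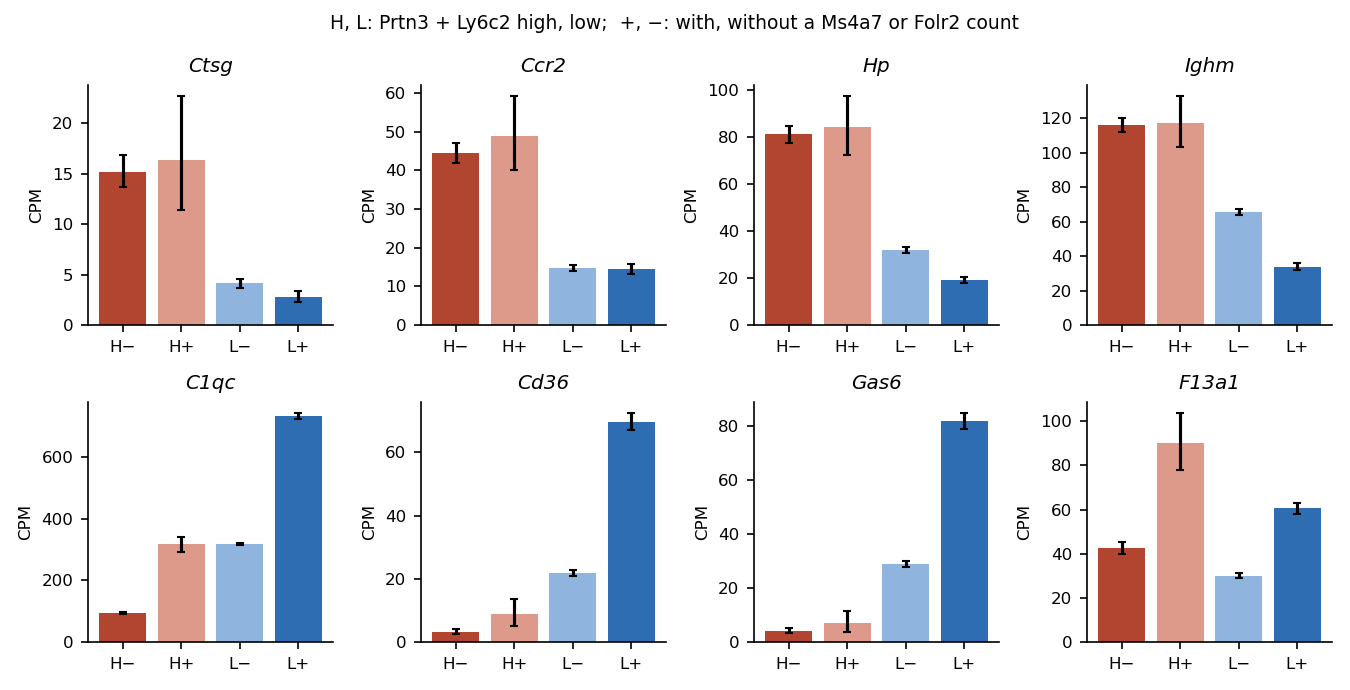
CPM (y axis, from 0) of 8 genes in 4 classes of cells, with 95% Poisson intervals. H and L are cells high and low for summed Prtn3 and Ly6c2, with (+) or without (−) a Ms4a7 or Folr2 count, in classes of 946, 64, 3224 and 973 cells from left to right. Ctsg, Ccr2 and Hp are as high in the 64 cells as in the 946, whereas F13a1 is higher with a Ms4a7 or Folr2 count.

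Set against all 1037 cells with a Ms4a7 or Folr2 count, the members had 31 of 6935 genes (0.447%) at least 2-fold higher and 266 (3.84%) at least 2-fold lower, with 47.5% higher and 52.5% lower by any amount. Against the 3224 low cells without such a count, 10 of 6743 genes (0.148%) were at least 2-fold higher and 47 (0.697%) lower, with 43.3% higher and 56.7% lower by any amount. Both comparisons use the same members. Complement genes with a row had median log2 ratios of -1.42 against the first set of cells and -0.70 against the second, chemokine and receptor genes -1.46 and -0.63, and interferon response genes -1.30 and -0.21. Monocyte genes had medians of 0.02 and 0.37, and 21 of 22 Myc target genes were higher in both. Between the low cells with and without a Ms4a7 or Folr2 count, where Prtn3 and Ly6c2 were below the threshold, 85 of 6904 genes (1.23%) were at least 2-fold higher in those with a count and 1 (0.0145%) lower, with 48% higher and 52% lower by any amount. All 19 interferon response genes with a row were higher there (median log2 ratio 1.10). The 1 gene past 2-fold lower was Slpi, at 10.8 CPM with a Ms4a7 or Folr2 count against 25.2 CPM without one, and in the members it was at 52.3 CPM.

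Levels were also read along the summed Prtn3 and Ly6c2 level. Among the cells with 0 counts of Ms4a7 and Folr2, 1635 had no Prtn3 or Ly6c2 count, 876 lay above 0 and below 100 CPM, 713 at 100 to 250, 504 at 250 to 500 and 442 at 500 or more. Over these 5 steps Ctsg stood at 2.47, 3.84, 7.68, 12.8 and 18.3 CPM and Ccr2 at 9.54, 15.1, 24.1, 36.0 and 55.2 CPM. Hp went through 19.9, 32.6, 52.8, 66.9 and 99.4 CPM. In the opposite direction C1qa stood at 326, 249.2, 182, 109.5 and 61.7 CPM and Cd36 at 33.3, 18.2, 7.38, 3.79 and 2.91 CPM. These 5 genes, which are among those with the largest ratios, kept 1 direction over the 5 steps. Others did not change evenly. Gas6 stood at 39.3, 27.1, 12.8, 4.64 and 4.01 CPM and Speg at 20.6, 12.7, 7.73, 3.07 and 3.004 CPM, with little further difference above 250 CPM. F13a1 stood at 26.2, 26.1, 44.4, 41.7 and 44.0 CPM, and Neat1 at 20.8, 16.6, 13.8, 5.64 and 7.56 CPM. Since a member had a median of 11 summed counts, counting error moves cells between steps, and a smooth series does not tell a gradient from a mixture of separate classes. The median depths of the steps were 15886, 34687.5, 22316, 24644 and 21437 counts, and a cell in the second step needs over 10000 counts, since a single count in a shallower cell comes to 100 CPM or more.

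**Figure D5:**
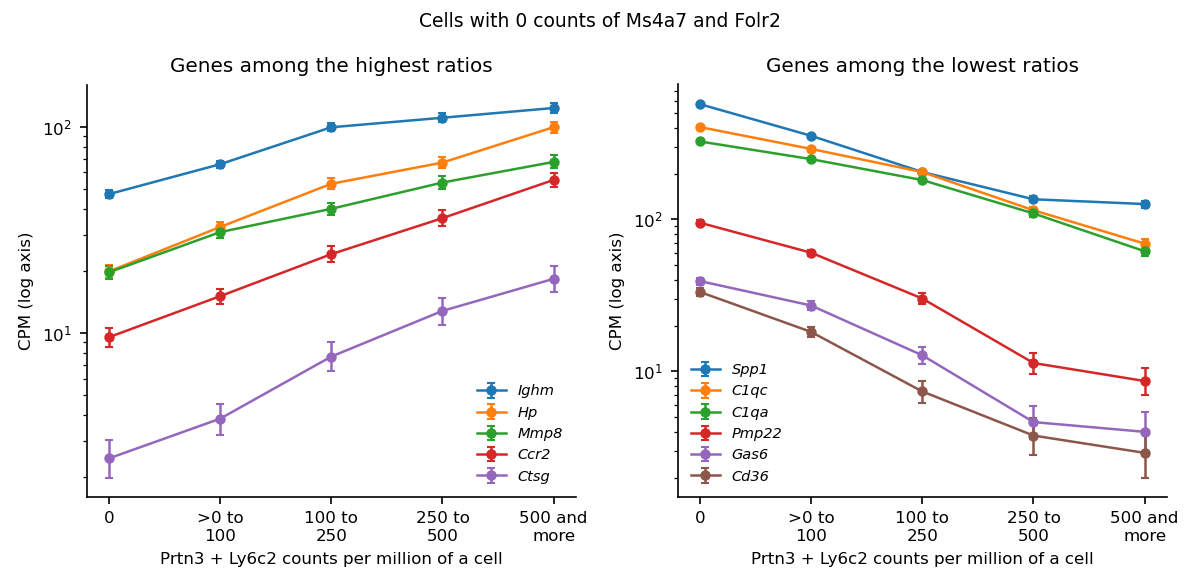
CPM (y axis, log scale) in 5 steps of a cell's summed Prtn3 and Ly6c2 level in CPM (x axis) among cells with 0 counts of Ms4a7 and Folr2, with 95% Poisson intervals. Genes on the left climb with each step, Ctsg from 2.47 to 18.3 CPM, and genes on the right decline, Cd36 from 33.3 to 2.91 CPM.

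The members also differed among themselves. The 723 cells with more Prtn3 than Ly6c2 counts were compared with the 188 cells with more Ly6c2, with median depths of 22554 and 26711 counts. Of 6668 genes at 10 CPM or more, 3 (0.045%) were at least 2-fold higher in the cells with more Prtn3 and 6 (0.09%) at least 2-fold lower, while 56.6% were higher and 43.4% lower by any amount. The 3 higher genes were the C1q chains. C1qa was at 102 CPM in cells with more Prtn3 against 48.0 CPM in cells with more Ly6c2, C1qb at 81.0 against 37.4 CPM and C1qc at 109 against 49.8 CPM, and in the cells with more Ly6c2 the top cell gave 9.23%, 8.53% and 7.47% of these counts. Hp, Vcan, Ctsg and Ccr2 ran the other way. In cells with more Prtn3, Hp was at 67.3 CPM (63.7 to 71.2) against 122 CPM (113 to 132) in cells with more Ly6c2, Vcan at 34.1 against 59.5 CPM, Ctsg at 13 CPM (11.4 to 14.7) against 22.1 CPM (18.4 to 26.4) and Ccr2 at 39.1 against 62.2 CPM. Of the 6 genes lower in cells with more Prtn3, 3 rested on 1 cell each. In the cells with more Ly6c2, the top cell gave 95.9% of the Cxcl10 counts, 91.7% of the Olfr889 counts and 85.0% of the Trmt61b counts. The other 3 were Hal (9.45 against 21.3 CPM), the coagulation factor gene F10 (5.21 against 11.7 CPM) and Cd48 (7.04 against 15.2 CPM), where the top cell gave at most 12.8%.

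The members were also divided by their cell cycle counts, so cycle genes differ by construction. The 431 members with more than 12 counts of S, G2 and M phase genes per 5000 were set against the 515 with 12 or fewer. Outside those lists, 74 of 6719 genes (1.1%) were at least 2-fold higher and 1 (0.0149%) at least 2-fold lower, and 73.3% were higher and 26.7% lower by any amount. The leading genes were of the spindle and restate the division, with Spc25 at 25.6 against 6.41 CPM and Prc1 at 56.2 against 15.01 CPM, and the gene past 2-fold in the other direction was Btg2, an inhibitor of proliferation, at 5.03 against 14.7 CPM. Ctsg (15.01 against 15.4 CPM), Hp (78.6 against 84.2 CPM) and Ccr2 (41.8 against 47.4 CPM) differed little between these members, and C1qc was at 85.1 against 106 CPM.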

How the data were processed

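The authors deposited 1 matrix of whole-number counts per gene and barcode, with gene symbols and barcode names. Per the file headers, PISA 0.12 made it. The submitters' processing notes name Cell Ranger and mm10 without saying what each was used for. How reads were aligned, annotated and assigned to cells, and whether molecular identifiers were counted, is not given in the sources used here, and counts of reads would make the intervals too narrow. Barcode names carry no sample and end in a suffix of no stated meaning.

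Counts were summed over cells and scaled to CPM with Python 3.11.15, numpy 2.4.6 and scipy 1.17.1. Poisson and Clopper-Pearson intervals at 95% cover counting error only. Thinning drew without replacement, and the division of counts was a binomial draw with equal probability for either part. Doublets were not called, and the cells in the top 5% of counts were left out as an alternative. Of the 20034 symbols, 19659 are in GENCODE M21. The pooling steps were tested on simulated data. The members, the 30 gene lists and the rule for named genes (the 15 highest and 15 lowest ratios, all granule, monocyte and progenitor genes, and up to 4 genes of each other list) were chosen with earlier results of these data known. Further list members and the leading genes of comparisons within the members were named after their values were seen. Promoter sequences are RefSeq's. A few genes under that rule are not reported here.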

Additional observations from a re-analysis of the deposited data

How the results depend on the processing

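No paired analysis was possible because the 2 labelled libraries share 1 matrix whose barcodes carry no sample. The number of Prtn3 and Ly6c2 high cells was 1659 with a threshold of 100 CPM and 442 with 500 CPM, 222 by Ly6c2 alone, 544 among cells of at least 20000 counts and 360 among barcodes of suffix 1, an alternative added after the data were seen. Genes at least 2-fold higher numbered 32 by Ly6c2 alone, 26 when ribosomal protein, mitochondrial and ribosomal RNA transcripts were left out of the scaling, 26 with no filter on low values, 4 among genes at 50 CPM and 2 with a pseudocount of 10 CPM. Genes at least 2-fold lower numbered 189 with no filter, 33 among genes at 50 CPM and 45 with that pseudocount. The log2 ratio of Ctsg, the largest reported, was 1.72 and fell to 0.86 with a pseudocount of 10 CPM, where that of Ccr2 was 1.11. Among cells with few cycle counts, 10 of 20 G2 and M phase genes were lower and the median was 0.01. Of all recomputed counts, 229 lay within 1.5 times the reported ones and the 14 above did not. Some of the 229 could not move, since a pseudocount does not alter which genes of a list are higher or lower. The tally is thus no measure of robustness. Medians that changed sign were those of the primary granule list (-0.05 with 500 CPM, by Prtn3 alone and by Ly6c2 alone), of CSF receptors (0.02 by Ly6c2 alone), of the erythroid and megakaryocyte list (0.02 with 100 CPM) and of dendritic cell genes (-0.08 with suffix 1). Lists with a reported median within 0.1 of 0 also changed sign, among them myeloid transcription factors (0.06 by Ly6c2 alone), glycolysis (-0.02 by Ly6c2 alone), the Myc network (0.05 with few cycle counts), MHC class II (0.12 when chosen on a part of the counts) and B cell genes (0.03 with 100 CPM). The cause was not tested. With 1 sample, none of this measures variation between cultures, and a count of 0 in the members allows up to 0.148 CPM (95% Poisson limit).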

Other observations

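Further gene groups differed little between the Prtn3 and Ly6c2 high cells and the others. With no limit on level, 37.4% of all genes were higher. The counts of integrin and adhesion genes, CSF receptors and the Myc network given below lie near that share. Early response genes were higher in 10 of 15 (median log2 ratio 0.07), with Egr1 at 17.3 against 10.2 CPM and Ier2 at 105 against 73.6 CPM, while Atf3 was at 16.7 against 32.3 CPM. Genes of the p53 response were lower in 10 of 13 (-0.24), including Mdm2 (13.6 against 20.7 CPM) and Cdkn1a (246 against 327 CPM). Of 16 integrin and adhesion genes, 11 were lower (-0.19), with Itga6 at 20.8 against 34.5 CPM and Itgam at 29.7 against 42.2 CPM. Receptors of colony-stimulating factors and related cytokines were lower in 7 of 10 (-0.17), whereas Csf2rb, the shared chain of the GM-CSF receptor, was at 102 against 79.5 CPM and Il6ra at 49.9 against 36.9 CPM. Glycolysis genes were higher in 10 of 15 (0.04), and the Myc network in 4 of 10 (-0.04). In the Ms4a family outside the rule, 6 of 8 genes were lower (-0.08), with Ms4a6d at 46.4 against 64.2 CPM.

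Of 9 MHC class II genes, 4 were higher (median log2 ratio -0.01). The invariant chain gene Cd74 was at 69.9 CPM (66.7 to 73.3) against 46.4 CPM and H2-DMa at 12.2 against 6.82 CPM. Nuclear and ribosomal RNA transcripts were lower in all 7 with a row (-0.30), with Neat1 at 6.48 against 17.8 CPM and Malat1 at 139 against 209 CPM. The log2 ratio of Neat1 was -1.33, and -0.44 among barcodes of suffix 1. That of Malat1 was -0.58, and -0.10 among cells with few cycle counts.

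The share of Prtn3 and Ly6c2 high cells by barcode suffix was 17.8% (exact interval 16.1 to 19.5%) of 2026 barcodes of suffix 1, 18.4% of 1226 of suffix 2, 18.5% of 982 of suffix 3, 17.3% of 544 of suffix 4, 18.8% of 260 of suffix 5 and 21.7% of 115 of suffix 6. Suffixes 7, 8 and 9 held few cells, with 4 of 32, 7 of 14 (exact interval 23.04 to 76.96%) and 0 of 8. The interval of suffix 8 lay above the 18.2% of all cells. It rests on 14 cells, makes no allowance for looking at 9 suffixes, and the difference was not tested. With the top 5% of cells by counts left out, 925 high cells remained, and 16 genes were at least 2-fold higher and 89 at least 2-fold lower.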
